A study of Homo sapiens with 9 samples.

Results

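The 34 genes described here carry glucose into the cell, break it down to pyruvate, turn pyruvate into lactate and carry lactate out. They were taken as a fixed list of 2 glucose transporters, 4 hexokinases, 7 enzymes and subunits of the upper steps, 4 regulators of fructose 2,6-bisphosphate, 10 enzymes of the lower steps, 5 lactate genes and 2 phosphoglucomutases. They are 34 of 20037 protein-coding genes on the chromosomes used. Their chromatin was read by ATAC-seq, in which a transposase cuts and tags open DNA, in T47D, an established luminal breast cancer line of human origin. Cells with a hairpin RNA against ZHX2 (shZHX2) in hypoxia, cells with a control hairpin (shCtrl) in hypoxia, and cells with shCtrl in normoxia were compared, with 3 samples a group per the labels. All groups were infected with lentivirus and selected with hygromycin or puromycin, and all come from this 1 line. The oxygen level, the length of the hypoxia and the hairpin sequences are not given in the sources used here. A hairpin acts on RNA, so the knockdown itself could not be checked in these files.

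The authors deposited 1 list of called regions per group, with positions on hg38, and no values per sample. The list for hypoxia shZHX2 held 62779 regions, that for hypoxia shCtrl 77451 and that for normoxia 90962. The read depth behind each list is unknown, and the part of list length and depth in the results below was not tested. With 1 list a group there is no spread between samples and no test, so counts and shares are given. Exact binomial 95% intervals beside shares cover counting error only, and regions are not replicates of a condition. A region was given to the protein-coding gene whose nearer start or end (RefSeq, GRCh38) was closest, within 50 kb. It was counted at a gene end where it reached the 1 kb on either side of a start or end of a protein-coding gene, and was distal otherwise. By this rule the 34 genes held 78 regions in hypoxia shZHX2, 95 in hypoxia shCtrl and 109 in normoxia. Any overlap of 1 bp or more made 2 regions of different lists the same call.

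Glycolysis splits 1 glucose into a pair of pyruvate molecules, and tumour cells often run it fast and release the product as lactate. In low oxygen the hypoxia-inducible factors (HIF) accumulate and bind DNA at the cores ACGTG and GCGTG, and several genes of this list, among them SLC2A1, HK2, PFKFB3, PFKFB4, PGK1 and LDHA, are textbook HIF targets. ZHX2 is a zinc finger and homeobox protein known in kidney cancer cells as a substrate of VHL, the ubiquitin ligase that also marks HIF for destruction.

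The sequences printed here lie before annotated starts that, except for PGAM2, were covered in every list. Sequences of the sites called in only some of the lists, most of them distal, were not read. For each of the 7 roles, the start covered by the region of highest fold in hypoxia shCtrl is printed, among annotated starts whose upstream sequence was available. The outer start of GPI, in a region with a fold of 9.83 in hypoxia shCtrl, was not among these. PGAM2 is added because its single annotated start was covered in normoxia only. Further starts of HK2 and TPI1 were also covered in normoxia only, and a further start of PFKP in hypoxia shZHX2 only. Those genes had another start covered in every list, and these windows are not printed. The window of that HK2 start held 6 cores, more than any printed window. The other start of LDHA was added after its motifs had been seen. Each is the 250 bases before an annotated start, 5′ to 3′ on the strand of the gene, from RefSeq on GRCh38.p14, and capitals mark ACGTG or GCGTG on either strand.
PGK1 (chrX:78103998-78104247, plus strand): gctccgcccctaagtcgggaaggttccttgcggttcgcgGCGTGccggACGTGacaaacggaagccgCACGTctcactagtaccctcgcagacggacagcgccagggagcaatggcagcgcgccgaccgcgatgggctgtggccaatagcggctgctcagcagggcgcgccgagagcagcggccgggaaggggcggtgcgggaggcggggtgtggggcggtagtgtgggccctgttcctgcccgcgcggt
SLC2A1 (chr1:42958869-42959118, minus strand): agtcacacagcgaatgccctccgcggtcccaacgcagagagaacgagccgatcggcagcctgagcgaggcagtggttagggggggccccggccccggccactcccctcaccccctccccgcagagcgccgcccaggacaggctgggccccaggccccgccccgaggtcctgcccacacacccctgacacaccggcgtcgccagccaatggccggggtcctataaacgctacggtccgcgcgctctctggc
PGM2 (chr4:37826436-37826685, plus strand): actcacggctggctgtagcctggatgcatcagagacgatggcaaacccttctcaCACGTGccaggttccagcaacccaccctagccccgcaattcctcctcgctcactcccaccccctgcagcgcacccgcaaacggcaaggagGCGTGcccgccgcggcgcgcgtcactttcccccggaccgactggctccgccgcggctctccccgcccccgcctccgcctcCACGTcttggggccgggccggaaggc
HK1 (chr10:69317931-69318180, plus strand): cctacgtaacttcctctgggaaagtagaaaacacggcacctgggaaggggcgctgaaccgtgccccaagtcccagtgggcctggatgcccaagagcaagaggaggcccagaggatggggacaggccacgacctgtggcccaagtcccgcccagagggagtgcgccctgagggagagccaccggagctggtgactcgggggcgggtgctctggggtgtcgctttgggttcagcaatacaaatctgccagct
PFKFB3 (chr10:6144671-6144920, plus strand): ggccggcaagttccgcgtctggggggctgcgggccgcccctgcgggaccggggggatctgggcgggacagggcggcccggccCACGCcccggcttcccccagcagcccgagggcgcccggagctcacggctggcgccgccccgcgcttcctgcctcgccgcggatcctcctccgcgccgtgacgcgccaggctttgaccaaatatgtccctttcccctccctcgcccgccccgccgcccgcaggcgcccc
ALDOC (chr17:28576896-28577145, minus strand): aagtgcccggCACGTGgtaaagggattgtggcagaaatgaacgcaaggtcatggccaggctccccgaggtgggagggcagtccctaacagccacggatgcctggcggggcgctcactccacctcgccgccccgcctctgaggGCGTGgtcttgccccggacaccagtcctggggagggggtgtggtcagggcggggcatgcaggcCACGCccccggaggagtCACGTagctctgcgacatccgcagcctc
LDHA, downstream start (chr11:18396101-18396350, plus strand): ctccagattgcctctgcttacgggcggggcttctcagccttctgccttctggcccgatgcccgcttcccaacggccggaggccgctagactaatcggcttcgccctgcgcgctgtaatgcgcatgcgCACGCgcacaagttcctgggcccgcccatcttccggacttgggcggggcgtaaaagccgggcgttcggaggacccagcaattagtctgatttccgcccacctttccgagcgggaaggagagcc
LDHA, upstream start (chr11:18394313-18394562, plus strand): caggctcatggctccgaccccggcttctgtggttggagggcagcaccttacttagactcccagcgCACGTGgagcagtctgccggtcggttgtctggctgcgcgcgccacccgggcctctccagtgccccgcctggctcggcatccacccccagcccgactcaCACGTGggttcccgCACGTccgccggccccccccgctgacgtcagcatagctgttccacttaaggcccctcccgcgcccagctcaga
PGAM2 (chr7:44065568-44065817, minus strand): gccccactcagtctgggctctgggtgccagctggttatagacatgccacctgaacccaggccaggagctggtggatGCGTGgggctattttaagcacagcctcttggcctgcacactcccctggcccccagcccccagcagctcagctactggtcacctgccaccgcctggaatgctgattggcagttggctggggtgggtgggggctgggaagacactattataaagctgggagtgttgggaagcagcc

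The PGK1 window held 3 cores, PGM2 4, ALDOC 5 and the other start of LDHA 5, against 1 each for PFKFB3, the downstream start of LDHA and PGAM2 and 0 for SLC2A1 and HK1. ACGTG and GCGTG were searched on both strands, and an E-box CACGTG, which holds ACGTG on each strand, counts as 2 cores. Windows were found for 31 of the 34 genes, 61 in all, many of which overlap; PFKFB2, SLC16A1 and SLC2A3 have none in the table. Of the 31 windows of the listed genes whose start lay in a hypoxia shCtrl region, 58.1% held either core, against 58.9% of the 13703 such windows of all genes. ACGTG alone stood in 38.7% of these windows of the listed genes and 23.1% of those of all genes, and GCGTG in 35.5% and 47.5%. Over all 22199 windows, open or not, either core stood in 49.3%. Searched the same way, CACGTG stood in 12.9% of the listed genes' windows in open regions and 8.68% of all genes', the GC box GGGCGG in 74.2% and 70.6%, and the AP-1 site TGACTCA in 3.23% and 2.15%. A match is only a run of letters and shows no binding.

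Most of the glycolytic genes, like most protein-coding genes, had a region called at an end in every condition. A gene end was called for 27 of the 34 genes in hypoxia shZHX2, 27 in hypoxia shCtrl and 28 in normoxia, beside 70% of all protein-coding genes in hypoxia shZHX2, 72.3% in hypoxia shCtrl and 74.2% in normoxia. The 27 were the same genes in both hypoxia lists, and normoxia added HK3, a hexokinase of blood cells. SLC2A3, HK1, HKDC1, PFKFB4, LDHB and LDHC had none in any list by this measure. Own regions were held by 31 genes in each list, since no region was closest to PFKFB1, PFKFB4 or PKLR. Own regions at a gene end were held by 23 genes in hypoxia shZHX2, 23 in hypoxia shCtrl and 25 in normoxia. The remaining called ends lay at a region given to another gene. The 34 genes held 2.29 regions a gene in hypoxia shZHX2, 2.79 in hypoxia shCtrl and 3.21 in normoxia, beside 2.28 in hypoxia shZHX2, 2.72 in hypoxia shCtrl and 3.13 in normoxia over all protein-coding genes. The number of regions at a gene end was 26 in hypoxia shZHX2, 26 in hypoxia shCtrl and 29 in normoxia. Distal regions numbered 52 in hypoxia shZHX2, 69 in hypoxia shCtrl and 80 in normoxia. The whole lists had the same shape, with 13472 gene-end regions in hypoxia shZHX2, 14208 in hypoxia shCtrl and 14866 in normoxia, and 32143 distal regions in hypoxia shZHX2, 40314 in hypoxia shCtrl and 47800 in normoxia.

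**Figure D1:**
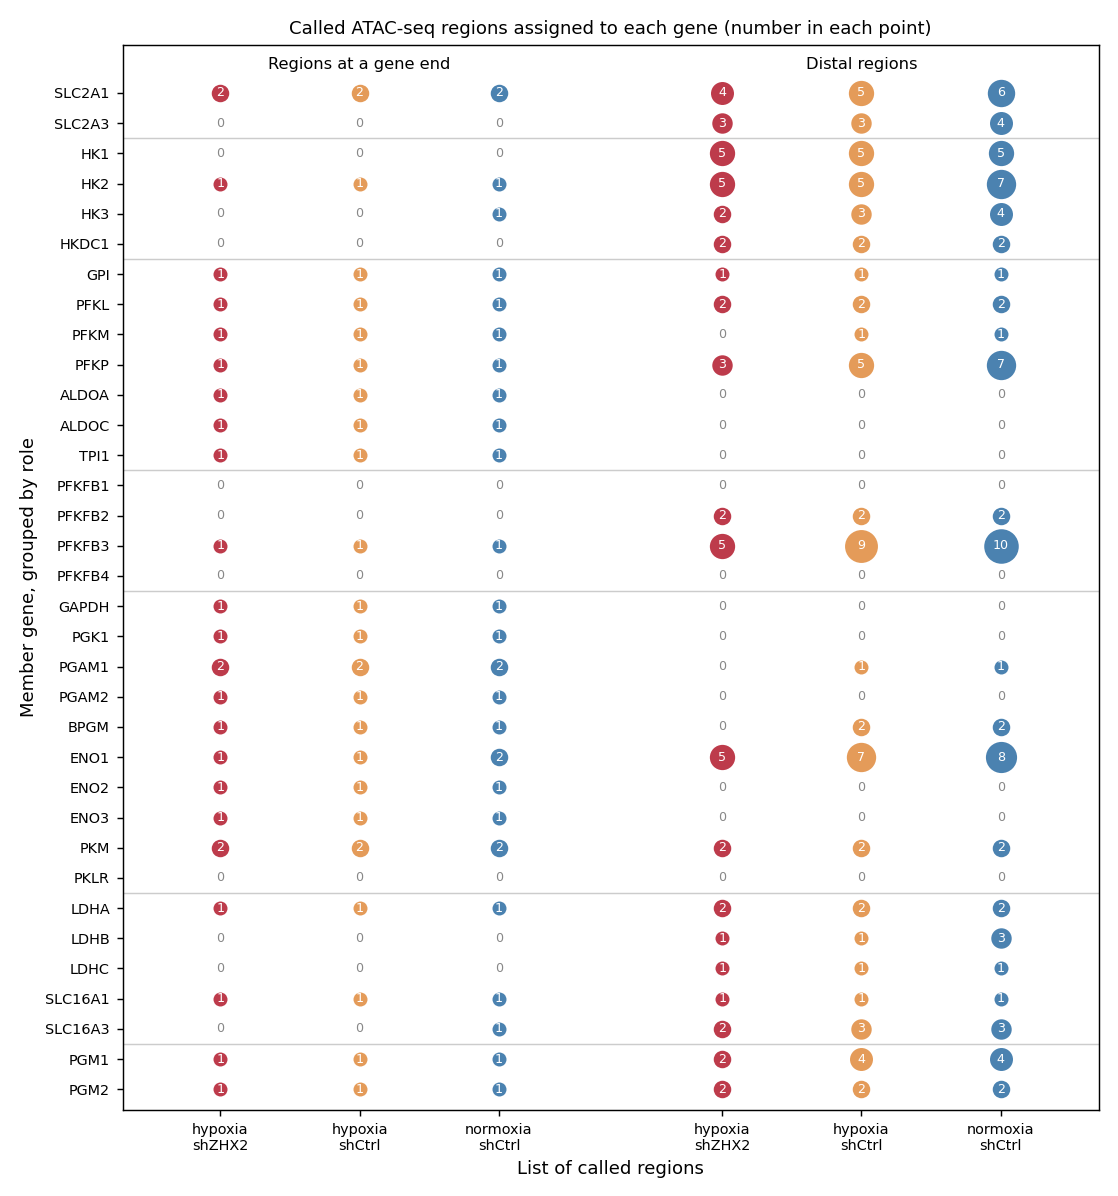
Number of called ATAC-seq regions assigned to each of the 34 genes (rows, grouped by role) in each list (columns), at a gene end on the left and distal on the right; point area grows with the number printed in it, and 0 is in grey. Counts at gene ends were alike in the 3 lists for all but HK3, ENO1 and SLC16A3, while distal counts were lowest in hypoxia shZHX2 for PFKFB3, PFKP and ENO1.

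Merged over the lists, the regions of these genes formed 113 sites. Of these 76 were called in all 3 lists, which is 67.3%, beside 58.4% of all 97804 sites. Sites far from any gene are among those 97804. By class the shares were closer: 26 of 29 sites at gene ends were in all 3 lists, 89.7%, beside 88.4% of all such sites, and 50 of 84 distal sites, 59.5%, beside 56.3%. A further 16 sites were called in normoxia alone, 14.2% beside 16.7% of all sites, 15 in hypoxia shCtrl and normoxia, 13.3% beside 15.3%, and 4 in hypoxia shCtrl alone, 3.54% beside 4.34%. A pair was called in hypoxia shZHX2 and normoxia, 1.77% beside 2.44%. None was called in hypoxia shZHX2 alone, beside 2.05% of all sites, or in both hypoxia lists without normoxia, beside 0.75%. These shares are near those over all sites. The remaining 3 sites at a gene end lay at HK3, SLC16A3 and ENO1, all outside the gene record.

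Glucose uptake opens the pathway. SLC2A1 encodes GLUT1, the basal glucose transporter of many cells, and spans chr1:42925353-42958868 on the minus strand. It held 6 regions in hypoxia shZHX2, 7 in hypoxia shCtrl and 8 in normoxia. The region over its start, whose upstream bases are printed above, had a fold enrichment of 5.2 in hypoxia shZHX2, 4.63 in hypoxia shCtrl and 4.88 in normoxia. Fold enrichment over local background, score and −log10 q are the authors' own values for each region; they were used only to describe and rank regions within a list, and no change between conditions is read from them. A stronger region lay just past the other end of the gene, at chr1:42924074-42924891 in hypoxia shCtrl, with a fold of 7.97 in hypoxia shZHX2, 7.39 in hypoxia shCtrl and 7.51 in normoxia. Besides 6 sites called in all lists, 1 region was called in hypoxia shCtrl alone, chr1:42916396-42916698, 8655 bp from the gene end. It had a fold of 3.33 and stood at percentile 19.3 of its list by −log10 q, where 100 is the strongest region. A pair of regions was called in normoxia alone, chr1:42937937-42938289 inside the gene with a fold of 2.63, and chr1:42967148-42967391 upstream with a fold of 3.15. All 3 of these partial sites were weak in their lists, at percentile 19.3 or below. SLC2A3 encodes GLUT3, a transporter of high affinity best known in neurons. It held 3 distal regions in hypoxia shZHX2, 3 in hypoxia shCtrl and 4 in normoxia; the extra one, chr12:7928489-7928688, had a fold of 3.15 and stood at percentile 13.4.

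The hexokinases trap glucose as glucose 6-phosphate. HK1, the form most tissues use, held 5 assigned regions in each list, all shared, all inside the gene and none at its outer ends. Further regions inside this long gene were over 50 kb from both ends and so not assigned, and 2 of those sites were partial. One at chr10:69337638-69338549 was called in hypoxia shZHX2 and normoxia and not in hypoxia shCtrl, and one at chr10:69326053-69326369 in hypoxia shCtrl and normoxia and not in hypoxia shZHX2. The widest assigned region, chr10:69317720-69319531 in hypoxia shCtrl, covered 2 annotated internal starts and had a fold of 3.88 in hypoxia shZHX2, 4.76 in hypoxia shCtrl and 3.83 in normoxia. The bases before the first of these starts are printed above. HK2, the hypoxia-responsive form abundant in many tumours, held 6 regions in hypoxia shZHX2, 6 in hypoxia shCtrl and 8 in normoxia. Its start region had a fold of 5.31 in hypoxia shZHX2, 4.46 in hypoxia shCtrl and 4.04 in normoxia, and a site 11 kb inside the gene, chr2:74845278-74845855, was stronger, with 11.2 in hypoxia shZHX2, 10.7 in hypoxia shCtrl and 10.3 in normoxia. The partial sites of HK2 were all inside the gene. One at chr2:74864911-74865284 was called in hypoxia shCtrl and normoxia, one at chr2:74868014-74868307 in hypoxia shZHX2 and normoxia, and one at chr2:74836478-74836706 in normoxia alone. HK3 held 2 regions in hypoxia shZHX2, 3 in hypoxia shCtrl and 5 in normoxia, none over its start. Its normoxia region at a gene end, chr5:176879868-176880067, was 200 bp wide, had a fold of 2.44 and stood at percentile 9.48. Its site chr5:176846546-176846899 was called in hypoxia shCtrl and normoxia, and chr5:176852904-176853201 in normoxia alone. HKDC1, a hexokinase-like gene next to HK1, held the same 2 distal regions in every list.

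The upper steps, run by GPI, the phosphofructokinase subunits PFKL, PFKM and PFKP, the aldolases ALDOA and ALDOC, and TPI1, had a called gene end for 7 of 7 genes in each list. GPI, phosphoglucose isomerase, had its stronger region at the outer start, with a fold of 8.72 in hypoxia shZHX2, 9.83 in hypoxia shCtrl and 8.71 in normoxia. ALDOC, the brain form of aldolase, had 8.43 in hypoxia shZHX2, 6.79 in hypoxia shCtrl and 6.58 in normoxia, and ALDOA, the muscle and general form, had 6.59 in hypoxia shZHX2, 6.59 in hypoxia shCtrl and 5.87 in normoxia. ALDOA, ALDOC and TPI1 held this 1 region each and no distal one. Only PFKP and PFKM had partial sites in this role. PFKP, the platelet form of the subunit, held 4 regions in hypoxia shZHX2, 6 in hypoxia shCtrl and 8 in normoxia. Its sites chr10:3080671-3080965 and chr10:3120096-3120349 were called in hypoxia shCtrl and normoxia and not in hypoxia shZHX2, with folds of 3.13 and 3.43 in hypoxia shCtrl. Another 2, chr10:3074183-3074549 and chr10:3106152-3106450, were called in normoxia alone. All 4 were inside the gene. In PFKM, the muscle form, chr12:48143969-48144276 was called in hypoxia shCtrl and normoxia, and not in hypoxia shZHX2.

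**Figure D2:**
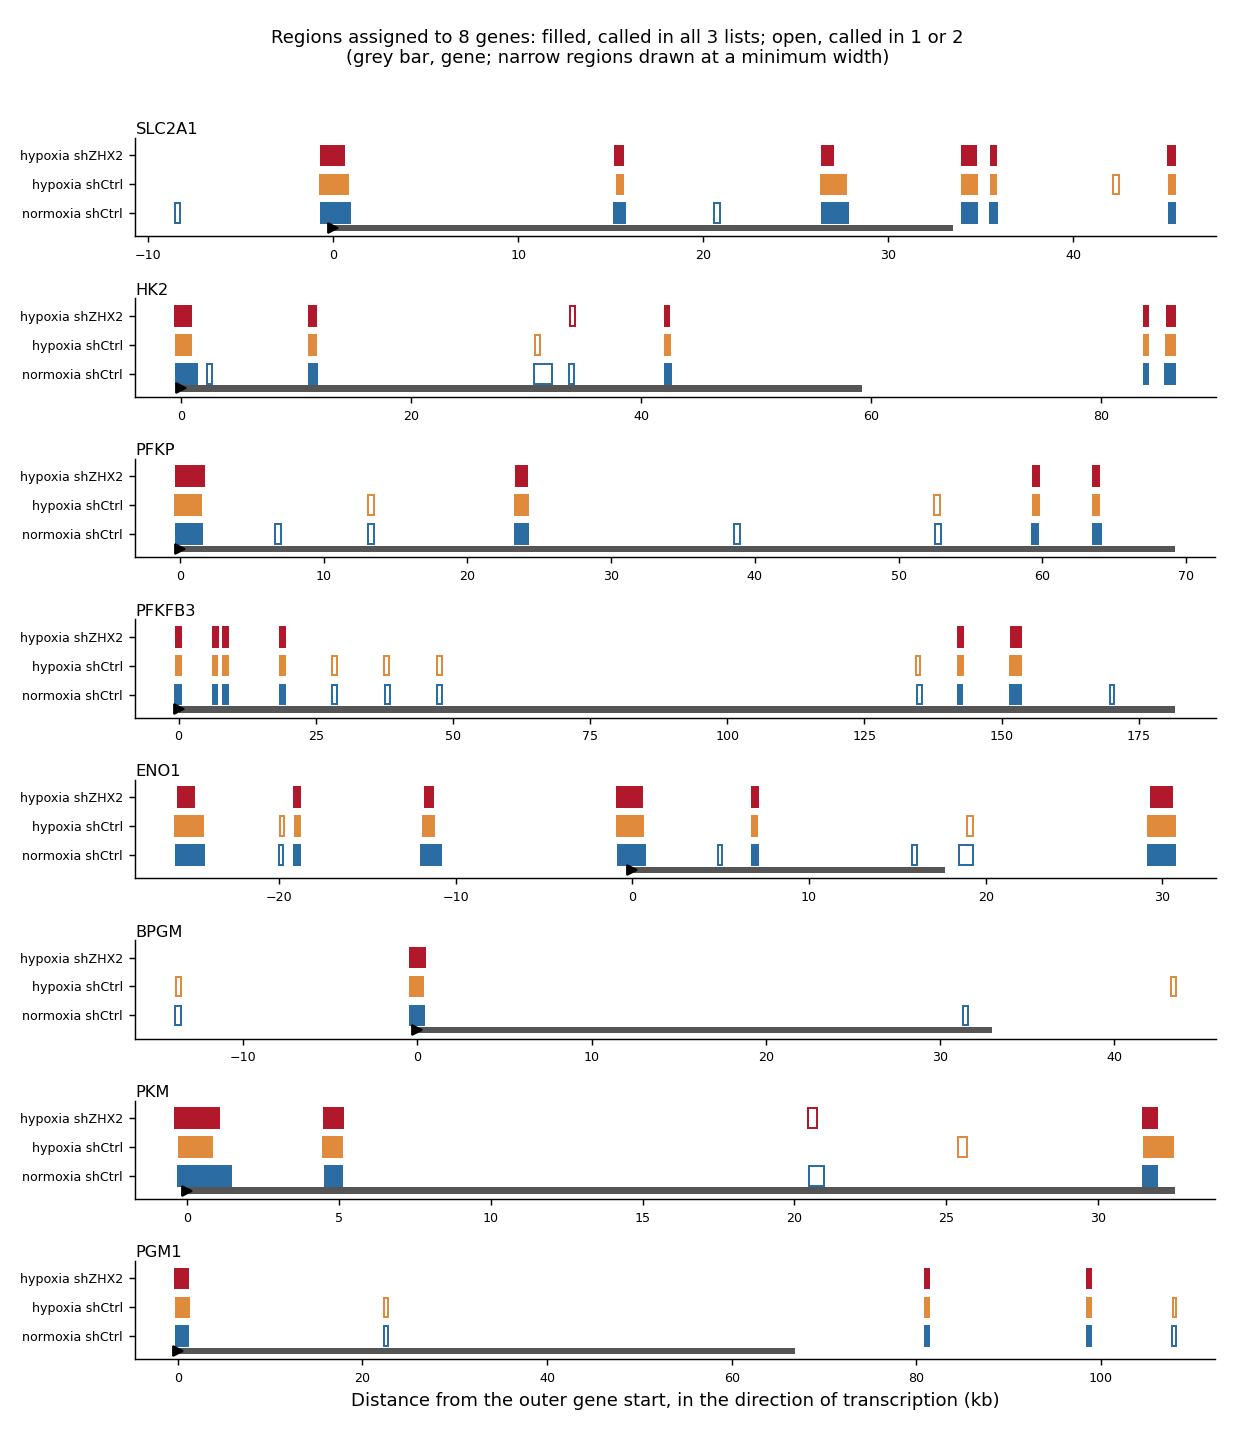
Regions assigned to 8 genes, by list, on an axis of distance in kb from the outer gene start in the direction of transcription; the grey bar is the gene, filled boxes are regions called in all 3 lists and open boxes regions called in 1 or 2. The start of each gene carried a filled box in all lists, and the open boxes lay inside or beyond the genes, with 4 open sites of PFKFB3 drawn in hypoxia shCtrl and normoxia and absent from hypoxia shZHX2.

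PFKFB enzymes set the level of fructose 2,6-bisphosphate, a strong activator of phosphofructokinase. PFKFB3, the form with high kinase activity that hypoxia induces in many cells, held 6 regions in hypoxia shZHX2, 10 in hypoxia shCtrl and 11 in normoxia, the most of the listed genes in hypoxia shCtrl and in normoxia. Its start region had a fold of 7.52 in hypoxia shZHX2, 6.19 in hypoxia shCtrl and 6.48 in normoxia. Of the 10 regions in hypoxia shCtrl, 4 were not called in hypoxia shZHX2, and these were also called in normoxia: chr10:6173195-6173504, chr10:6182652-6183027, chr10:6192296-6192687 and chr10:6279531-6279863. They lay inside the gene between 28274 and 47375 bp from its nearer end, with folds between 2.85 and 3.7 and percentiles between 4.66 and 34.1 in hypoxia shCtrl. Those 4 were the most of any listed gene, in the gene with the most hypoxia shCtrl regions. In normoxia alone, chr10:6314798-6315272 was called with a fold of 3.43. An internal start of PFKFB3, at chr10:6202932, lay in a region of all 3 lists that was over 50 kb from both gene ends and so was not assigned. Of other unassigned sites inside PFKFB3, chr10:6208788-6209109 was called in hypoxia shCtrl and normoxia and chr10:6228696-6229067 in normoxia alone. PFKFB4, a HIF target, had no region by the rule, yet its annotated start at chr3:48556803 lay inside a region of every list, nearer to an end of UCN2, with a fold of 6.06 in hypoxia shZHX2, 5.75 in hypoxia shCtrl and 6.39 in normoxia. Inside PFKFB4, chr3:48543093-48543589, likewise given to UCN2, was called in normoxia alone. The 2 regions of PFKFB2 were shared by all lists. PFKFB1, the liver form, had no start inside a region; the nearest region began 796 bp from its outer start in hypoxia shZHX2, 940 bp in hypoxia shCtrl and 898 bp in normoxia.

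The lower steps make ATP and pyruvate, and 10 of 10 of these genes had a called gene end in each list. In hypoxia shCtrl other roles had fewer: 1 of 2 for uptake, 1 of 4 hexokinases, 3 of 4 PFKFB genes and 3 of 5 lactate genes. Both phosphoglucomutases had one. The share over all protein-coding genes was 72.3% in that list. PGK1, phosphoglycerate kinase, had the strongest start region of the list, chrX:78103735-78104406 in hypoxia shCtrl, with a fold of 14.5 in hypoxia shZHX2, 14.3 in hypoxia shCtrl and 14.4 in normoxia. By fold it ranked 2 of 13472 gene-end regions in hypoxia shZHX2, 1 of 14208 in hypoxia shCtrl and 1 of 14866 in normoxia. Its edges differed by at most 7 bp between the lists, where the median over 26 such sites of the listed genes was 122.5 bp and 0.52% of 12894 gene-end sites of all genes differed by that little. The cells carried lentiviral vectors with a resistance marker, and the sources used here do not give which promoter drove it. If a vector held PGK1 promoter sequence, reads from it and from the gene cannot be told apart, so the PGK1 values are uncertain. BPGM, bisphosphoglycerate mutase, came next, with a start fold of 9.86 in hypoxia shZHX2, 11 in hypoxia shCtrl and 9.79 in normoxia. It held 1 region in hypoxia shZHX2 and 3 in hypoxia shCtrl and in normoxia. Its region chr7:134690141-134690356 was called in hypoxia shCtrl alone, with a fold of 3.13 at percentile 12.2. Another, chr7:134633004-134633302, was called in hypoxia shCtrl and normoxia, and chr7:134678172-134678468 in normoxia alone.

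**Figure D3:**
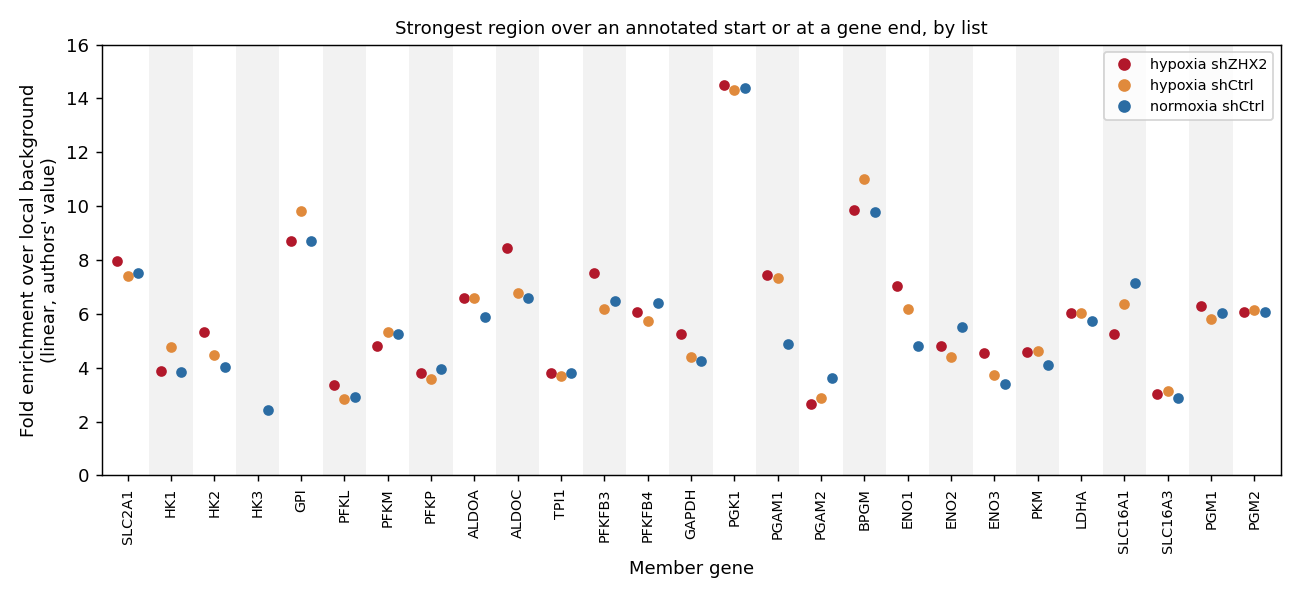
Fold enrichment over local background (linear, the authors' value) of the strongest region over an annotated start or assigned at a gene end, for the 27 genes with such a region in any list; within a gene, hypoxia shZHX2, hypoxia shCtrl and normoxia run from left to right. PGK1 stands above all others, at 14.5 in hypoxia shZHX2, 14.3 in hypoxia shCtrl and 14.4 in normoxia, and HK3 has a point in normoxia alone.

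ENO1, the enolase of most tissues, held 6 regions in hypoxia shZHX2, 8 in hypoxia shCtrl and 10 in normoxia. Its start region had a fold of 7.04 in hypoxia shZHX2, 6.19 in hypoxia shCtrl and 4.81 in normoxia. Past the end of the gene, a normoxia region of 782 bp at chr1:8859426-8860207 reached to 793 bp from the end, while the hypoxia shCtrl region at the same site was 331 bp wide and stopped 1242 bp away. The site thus counted at a gene end in normoxia and as distal in hypoxia shCtrl, and it was not called in hypoxia shZHX2. Another site, chr1:8898419-8898639, was called in hypoxia shCtrl and normoxia, and 2 inside the gene, chr1:8862598-8862846 and chr1:8873636-8873862, in normoxia alone. PKM, pyruvate kinase of muscle and tumours, held 4 regions in each list, but not the same ones: chr15:72205921-72206185 was called in hypoxia shCtrl alone, with a fold of 3.15, and chr15:72210855-72211135 in hypoxia shZHX2 and normoxia. Its start region stood at percentile 94.2 in hypoxia shZHX2, 95 in hypoxia shCtrl and 91.2 in normoxia. PGAM1, phosphoglycerate mutase, had a start region of 1000 bp in hypoxia shZHX2, 963 bp in hypoxia shCtrl and 1904 bp in normoxia, and its fold was 7.46 in hypoxia shZHX2, 7.34 in hypoxia shCtrl and 4.87 in normoxia. Its distal site chr10:97418989-97419411 was called in hypoxia shCtrl and normoxia. The region of PGAM2, the muscle form, was 335 bp wide in hypoxia shZHX2, 406 bp in hypoxia shCtrl and 769 bp in normoxia. It reached over the start of the gene in normoxia and stopped 227 bp short of it in hypoxia shZHX2 and 156 bp short in hypoxia shCtrl. Its percentile was 2.52 in hypoxia shZHX2, 16.5 in hypoxia shCtrl and 65.3 in normoxia, so it stood near the bottom of the hypoxia shZHX2 list. GAPDH, ENO2 and ENO3 held 1 shared region each and no partial site. The outer start of PKLR, the liver and red cell form of pyruvate kinase, lay in a region of every list that covered an end of FDPS and was counted there.

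Lactate dehydrogenase turns pyruvate into lactate, and the monocarboxylate transporters SLC16A1 (MCT1) and SLC16A3 (MCT4) move lactate across the membrane. Both annotated starts of LDHA, the M subunit that favours lactate, lay in a region of every list. The upstream start, with 5 cores in its window, had a fold of 5.69 in hypoxia shZHX2, 5.22 in hypoxia shCtrl and 4.95 in normoxia. The downstream start had 6.03 in hypoxia shZHX2, 6.02 in hypoxia shCtrl and 5.74 in normoxia. LDHB, the H subunit, had no region near its start: the nearest lay 22482 bp away in hypoxia shZHX2, 22452 bp in hypoxia shCtrl and 14089 bp in normoxia. Its regions numbered 1 in hypoxia shZHX2, 1 in hypoxia shCtrl and 3 in normoxia; chr12:21671931-21672386 and chr12:21675263-21675520 were called in normoxia alone. The single region of LDHC, the testis form, was shared by all lists. SLC16A3 held 2 regions in hypoxia shZHX2, 3 in hypoxia shCtrl and 4 in normoxia. Before its outer start a region was called in hypoxia shCtrl alone, chr17:82215506-82215848 with a fold of 1.98, and another in normoxia alone, chr17:82216666-82217071 with a fold of 2.07. Past the other end, chr17:82241664-82241960 was also called in normoxia alone, with a fold of 1.7. An internal start of SLC16A3 at chr17:82232232 lay in a region of every list that was nearer to an end of CSNK1D, with a fold of 3.03 in hypoxia shZHX2, 3.12 in hypoxia shCtrl and 2.86 in normoxia. SLC16A1 held the same 2 sites in each list. PGM1 is the phosphoglucomutase that links glucose 6-phosphate to glycogen, and PGM2 acts mainly on pentose phosphates; both had a region over their start in each list. PGM1 held 3 regions in hypoxia shZHX2, 5 in hypoxia shCtrl and 5 in normoxia, the 2 not called in hypoxia shZHX2 being chr1:63615785-63616116 and chr1:63701283-63701482.

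Counted over transcript starts instead of gene ends, 25 of the 31 genes with strand had a start inside a region in hypoxia shZHX2, 25 in hypoxia shCtrl and 26 in normoxia. HK3, HKDC1, PFKFB1, LDHB and LDHC had none in any list, and PGAM2 had one in normoxia. The outer start of the gene record counted as a start there. By the starts of the promoter windows alone, it was 21 of 31 in hypoxia shZHX2 beside 67.5% of the 15843 genes with a window, 21 in hypoxia shCtrl beside 68.6%, and 22 in normoxia beside 70%. The listed genes stood at 67.7% in both hypoxia lists and 71% in normoxia, close to all genes.

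The first comparison asks which regions hypoxia adds or removes in shCtrl cells. Of 95 regions of these genes in hypoxia shCtrl, 4 were not called in normoxia, 4.21% (1.16 to 10.4), beside 6.44% of all hypoxia shCtrl regions. They were the weak distal regions of SLC2A1, BPGM, PKM and SLC16A3 given above. At gene ends it was 0 of 26 (up to 13.2%), beside 1.26%, and among distal regions 4 of 69, 5.8% (1.6 to 14.2), beside 6.57%. Conversely, 18 of 109 normoxia regions were not called in hypoxia shCtrl, 16.5% (10.1 to 24.8), beside 20.6% of all normoxia regions. At gene ends it was 2 of 29, 6.9% (0.846 to 22.8), beside 5.17%, and among distal regions 16 of 80, 20% (11.9 to 30.4), beside 21.7%. ENO1, HK2, HK3, LDHB, PFKP, SLC16A3 and SLC2A1 held 2 such regions each, and BPGM, PFKFB3, PKM and SLC2A3 held 1 each. Each interval includes the share over all regions. The intervals cover counting error only, so neither a difference from all regions nor its absence is read from them. No region over an annotated start of the listed genes was called in hypoxia shCtrl and not in normoxia.

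The second comparison asks what the ZHX2 hairpin changes in hypoxia. Of 78 regions in hypoxia shZHX2, 2 were not called in hypoxia shCtrl, 2.56% (0.312 to 8.96), beside 7.11% of all hypoxia shZHX2 regions. These were the sites of HK2 and PKM that normoxia also held. At gene ends it was 0 of 26 (up to 13.2%), beside 1.08%, and among distal regions 2 of 52, 3.85% (0.469 to 13.2), beside 7.26%. In the other direction, 19 of 95 hypoxia shCtrl regions were not called in hypoxia shZHX2, 20% (12.5 to 29.5), beside 25% of all. None of the 26 regions at a gene end was among them (up to 13.2%), beside 6.17%, while 19 of 69 distal regions were, 27.5% (17.5 to 39.6), beside 26.6%. PFKFB3 held 4 of the 19, BPGM, ENO1, PFKP and PGM1 held 2 each, and HK2, HK3, PFKM, PGAM1, PKM, SLC16A3 and SLC2A1 held 1 each. Again each interval includes the share over all regions.

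The 4 regions of hypoxia shCtrl that normoxia lacked were also not called in hypoxia shZHX2, 4 of 4 (at least 39.8%), beside 85.3% of all such regions. The hypoxia shCtrl list stands in both comparisons, which are thus not independent.

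**Figure D4:**
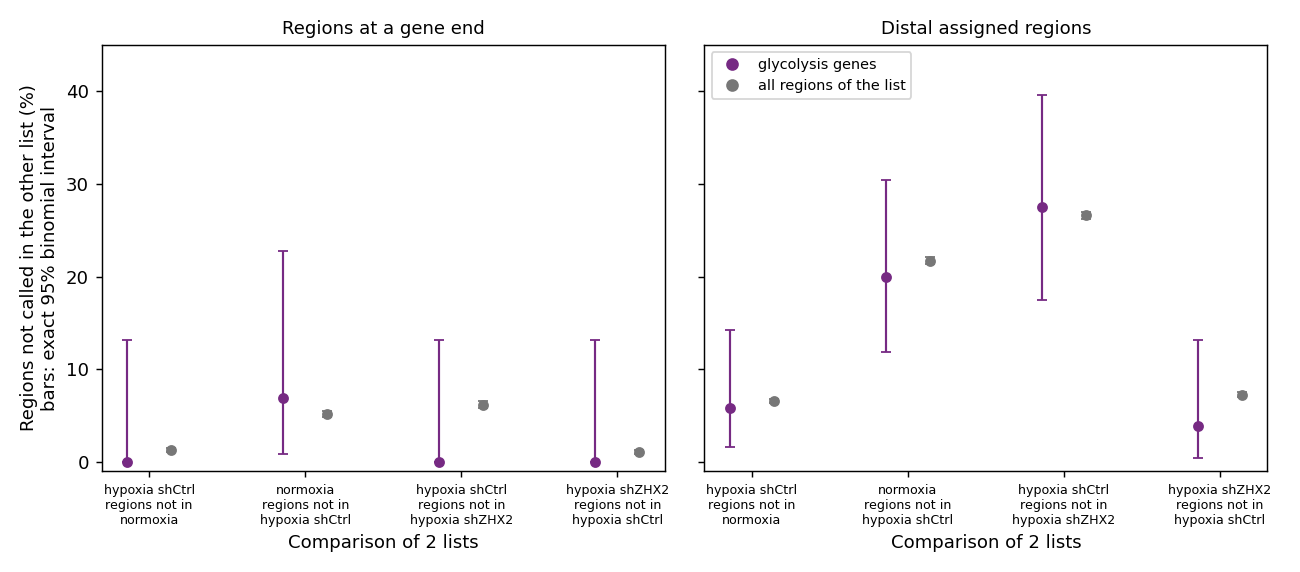
Share of regions (%) of 1 list that were not called in another, at gene ends on the left and among distal regions on the right; purple points are the glycolysis genes, grey points all regions of the list in that class, and bars exact 95% binomial intervals of counting error. The purple interval includes the grey point in each of the 8 comparisons, and at gene ends 3 of the 4 purple points are at 0.

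Regions of the listed genes that another list lacked stood low in their own list. The matching medians over all regions are not given, but the split by strength further on shows the same pattern over all assigned regions. Among hypoxia shZHX2 regions, the 2 that were not in both other lists stood at a median percentile of 16.1 by −log10 q, against 63.1 for the 76 that were. In hypoxia shCtrl, the median was 21.5 for 19 such regions, with a highest of 40, against 70.5 for 76. In normoxia it was 21.2 for 33, with a highest of 53.8, against 76.6 for 76. Their widths were also smaller, with medians of 287 bp in hypoxia shZHX2, 310 bp in hypoxia shCtrl and 341 bp in normoxia. Regions shared by all lists had median widths of 608 bp in hypoxia shZHX2, 670 bp in hypoxia shCtrl and 789 bp in normoxia.

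**Figure D5:**
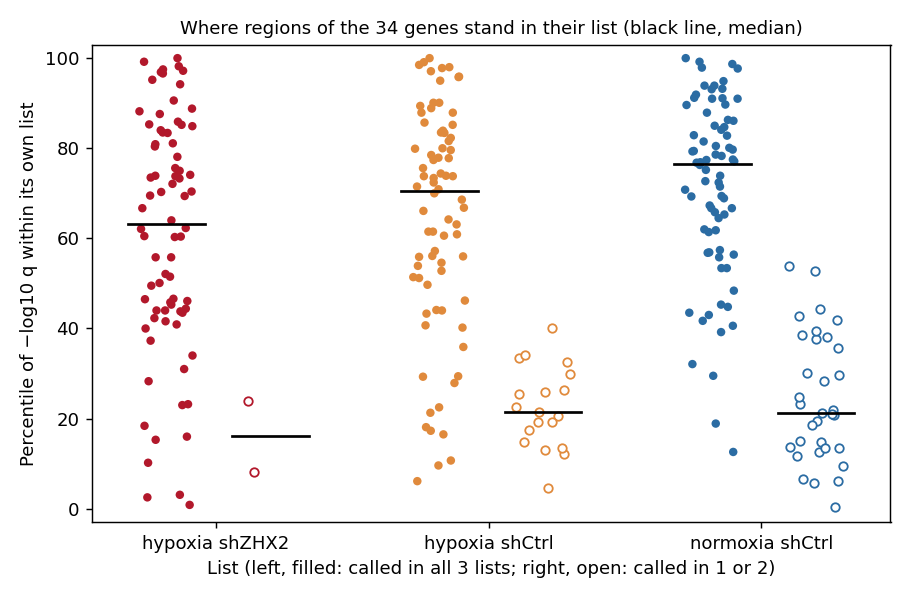
Percentile of −log10 q within its own list (vertical axis, 100 the strongest) for each region of the 34 genes, by list; filled points were called in all 3 lists, open points in 1 or 2, and black lines are medians. Open points lie low in each list, at 24 or below in hypoxia shZHX2, 40 or below in hypoxia shCtrl and 53.8 or below in normoxia.

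Each list was also split at its median −log10 q, for the same 4 comparisons. Of 57 stronger regions in hypoxia shCtrl, 0 were not called in normoxia (up to 6.27%), beside 0.0786%, and 0 were not called in hypoxia shZHX2, beside 1.47%. Of 66 in normoxia, 0 were not called in hypoxia shCtrl (up to 5.44%), beside 0.434%, and of 48 in hypoxia shZHX2, 0 (up to 7.4%), beside 0.0821%. All background shares here are over regions assigned to a gene. In these 4 comparisons the regions not called were all among the weaker ones. In hypoxia shCtrl 4 of 38 were not called in normoxia, 10.5% (2.94 to 24.8), beside 11.7%, and 19 of 38 were not called in hypoxia shZHX2, 50% (33.4 to 66.6), beside 46.5%. In normoxia 18 of 43 were not called in hypoxia shCtrl, 41.9% (27.0 to 57.9), beside 39.5%, and in hypoxia shZHX2 2 of 30, 6.67% (0.818 to 22.1), beside 12.3%. Normoxia and hypoxia shZHX2, which differ in both oxygen and hairpin, were not split this way; the normoxia regions of HK3 at percentile 53.8 and of PFKFB3 at percentile 52.8 are above the median of their list and were not called in hypoxia shZHX2.

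The lists differ in length, and the counts moved when they were cut to the length of the shortest. Such a cut makes the numbers missed in each direction nearly equal over all regions by construction, so it shows nothing of the cause. With the strongest 62779 regions by score, 7 of 83 hypoxia shCtrl regions were not in normoxia, 8.43% beside 10.7% of all, and 7 of 83 normoxia regions were not in hypoxia shCtrl, 8.43% beside 11%. With the same number by fold, it was 9 of 81 hypoxia shCtrl regions, 11.1% beside 12.4%, and 5 of 77 normoxia regions, 6.49% beside 12.6%. For the hairpin, 8 of 78 hypoxia shZHX2 regions were not in hypoxia shCtrl by score, 10.3% beside 14.5%, and 14 of 78 by fold, 17.9% beside 17.1%. In the other direction, 13 of 83 hypoxia shCtrl regions were not in hypoxia shZHX2 by score, 15.7% beside 14.9%, and 17 of 81 by fold, 21% beside 17.4%.

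By −log10 q, regions at gene ends stood above distal ones in each list. The median percentile at gene ends was 83.8 in hypoxia shZHX2, 83.8 in hypoxia shCtrl and 80.5 in normoxia, and among distal regions 50.5 in hypoxia shZHX2, 49.7 in hypoxia shCtrl and 53.1 in normoxia. Over all regions at a gene end the median was 83.7 in hypoxia shZHX2, 84.7 in hypoxia shCtrl and 85.7 in normoxia. Over all distal regions it was 44.9 in hypoxia shZHX2, 46.3 in hypoxia shCtrl and 46.9 in normoxia. By fold the gap was smaller for the listed genes than over all regions in each list. In hypoxia shZHX2 the median fold percentile was 58 at gene ends and 55.9 among distal regions, beside 67.4 and 45.6 over all such regions. In hypoxia shCtrl it was 66.5 and 50.1, beside 70.7 and 45.9. In normoxia it was 62.8 and 50.4, beside 70.2 and 45.7. Together the regions of the 34 genes covered 58.2 kb in hypoxia shZHX2, 67.2 kb in hypoxia shCtrl and 81.8 kb in normoxia. The whole lists covered 40.6 Mb in hypoxia shZHX2, 48.5 Mb in hypoxia shCtrl and 60.1 Mb in normoxia, in the same order. Of the distal regions of the listed genes, 30 of 52 in hypoxia shZHX2, 38 of 69 in hypoxia shCtrl and 48 of 80 in normoxia lay within the body of the gene. The matching share over all distal regions is not given.

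Neighbouring pathways were counted in the same way. Over all protein-coding genes, a gene end was called for 70% in hypoxia shZHX2, 72.3% in hypoxia shCtrl and 74.2% in normoxia. Pyruvate entry and the citrate cycle, which burn pyruvate in mitochondria, had a called gene end for 24 of 24 genes in each list. The pentose phosphate pathway, which branches off at glucose 6-phosphate, had 8 of 9 in each list. Glycogen and gluconeogenesis genes had 14 of 18 in hypoxia shZHX2, 14 in hypoxia shCtrl and 15 in normoxia. Other hexose transporters had 7 of 13 in hypoxia shZHX2, 7 in hypoxia shCtrl and 8 in normoxia, and other glycolytic and lactate genes 10 of 18 in hypoxia shZHX2, 10 in hypoxia shCtrl and 11 in normoxia. Hypoxia shCtrl regions not called in hypoxia shZHX2 were 20% of 95 for the 34 genes, beside 25% of all hypoxia shCtrl regions. The share was 21.9% of 64 for the citrate cycle, 23.3% of 30 for the pentose phosphate pathway and 17.3% of 52 for glycogen and gluconeogenesis. It was 26.1% of 46 for the other hexose transporters and 21.1% of 38 for other glycolytic and lactate genes.

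Markers fixed for the cell line were read at gene ends too. Of 11 luminal breast markers, 9 were called in hypoxia shZHX2, 9 in hypoxia shCtrl and 10 in normoxia, with ESR1 and TFF1 not called in hypoxia shCtrl. Of 4 basal markers 0 were called in hypoxia shZHX2, 1 in hypoxia shCtrl and 1 in normoxia, and of 5 blood markers 3 in hypoxia shZHX2, 4 in hypoxia shCtrl and 4 in normoxia. Of 4 markers of endothelium and stroma, and of 2 of liver, 1 was called in each list. The share over all protein-coding genes was 70% in hypoxia shZHX2, 72.3% in hypoxia shCtrl and 74.2% in normoxia. With so few markers, these counts do not tell cell types apart. The share of cells of another kind, and its part in the results, was not tested.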

How the data were processed

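Per the labels' protocols, a Nextera kit was used to transpose T47D nuclei, and an Illumina NovaSeq read the fragments from both ends. FastQC, Bowtie2, SAMtools, MACS2 and hg38 stand in the submitters' processing notes, without versions. The sources used here do not give how the 3 samples of a group became 1 list, nor whether reads were shifted for the transposase. The authors' deposited lists hold a score, a fold enrichment (a linear ratio) and a −log10 q for each region, all relative to the local background. The deposited score was the whole part of 10 times −log10 q in 100% of regions. Read depth is unknown.

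From these, regions were assigned, overlapped and counted with Python 3.11.15, pandas 2.3.3 and scipy 1.17.1, after a check of the code on simulated regions. Gene and promoter positions came from RefSeq tables of GRCh38.p14; exons are not in them. The members, gene lists and rules were chosen with earlier results of these data known. Genes with a site called in 1 or 2 lists were described site by site, up to 25 genes. Alternatives were a wider gene-end window, starts only, assignment within 20 kb, an overlap of 50%, the stronger 50% of each list, and lists of equal length. The same stronger regions against the whole other list were added after seeing the data.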

Additional observations from a re-analysis of the deposited data

How the results depend on the processing

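Of 54 alternatives for 14 results, 31 stayed within 1.5 times the main count and 23 moved by more. With the stronger 50% of each list by score, the listed genes held 48 regions in hypoxia shZHX2, 57 in hypoxia shCtrl and 66 in normoxia. Then 1 hypoxia shCtrl region was not called in normoxia, 1.75% beside 3.58% of all, 10 normoxia regions were not called in hypoxia shCtrl, 15.2% beside 18%, 12 hypoxia shCtrl regions were not called in hypoxia shZHX2, 21.1% beside 22.7%, and 1 region of hypoxia shCtrl was in neither other list. Assignment within 20 kb left 45 distal regions in hypoxia shCtrl and 53 in normoxia. Of 71 hypoxia shCtrl regions then assigned, 11 were not called in hypoxia shZHX2, and of 61 hypoxia shZHX2 regions 1 was not called in hypoxia shCtrl. At equal length by score, 7 hypoxia shCtrl regions were not in normoxia, 7 normoxia regions not in hypoxia shCtrl, and 8 hypoxia shZHX2 regions not in hypoxia shCtrl. At equal length by fold these were 9, 5 and 14, with 8 hypoxia shCtrl regions in neither other list. No share over all regions is given for assignment within 20 kb or for the counts in neither other list. Those counts are thus not read as a result about the listed genes. Stronger regions set against the whole other list gave 0 in each pairwise comparison run. The last of the 5 such counts, hypoxia shCtrl regions in neither other list, then had no region to enter it. Each of these settings leaves fewer regions in at least 1 of the lists compared. Why the counts moved was not tested. Counts of genes with a called gene end stayed within 1.5 times under each alternative run.

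No paired analysis was possible because each group has 1 list, its columns carry no replicate number and no result comes from a test. No replicate was left out for the same reason. Depth is unknown, and a region missing from a list cannot be told apart from one just under its threshold.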
